A study of Mus musculus with 3 samples.

Results

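The R-spondin and Lgr genes were followed in single-cell RNA sequencing of mouse back skin around hair follicle formation. The set held 9 genes of 19165 in the deposited table, chosen by name: the 4 R-spondins *Rspo1*, *Rspo2*, *Rspo3* and *Rspo4*, the 3 receptors *Lgr4*, *Lgr5* and *Lgr6*, and the 2 ubiquitin ligases *Znrf3* and *Rnf43*. All 9 had a row in the table and counts in at least 1 library. The study sampled C57BL/6 male back skin on embryonic days E13.5 and E16.5 and at birth (P0), with 1 library per stage and no treatment or mutant. Skin was digested with trypsin/EDTA at E13.5 and E16.5 and with collagenase IV at P0, and cells were captured with the 10x Genomics 3' kit, version 2. Each library holds tissue that was not separated by animal, so stage, library and digestion cannot be told apart. With 1 library per stage, neither stages nor classes were tested over samples, and every interval below covers counting error only.

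R-spondins are secreted proteins that strengthen Wnt signalling. The membrane ligases *Znrf3* and *Rnf43* mark Frizzled receptors for removal from the cell surface, and an R-spondin that binds an Lgr receptor and a ligase together clears the ligase, which leaves more Frizzled and Lrp on the membrane. In skin, Wnt signals are required for the epithelial placode and the dermal condensate, the groups of cells from which the hair matrix and the dermal papilla form, and *Lgr5* and *Lgr6* are known as stem cell markers of the adult follicle.

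The libraries held 5962, 5208 and 5065 cells with medians of 7066.5, 11021 and 6797 UMIs (unique molecular identifiers, each standing for a counted RNA molecule) per cell at E13.5, E16.5 and P0. They shared 44 cell barcodes between E13.5 and E16.5, 41 between E13.5 and P0 and 32 between E16.5 and P0. Cells were clustered within each library without the 9 genes or the 24 other Wnt pathway genes described below, and clusters were named "X-like" from marker genes. UMIs were summed over the cells of a class and divided by all UMIs of that class, which gives CPM, the UMIs per 1000000 UMIs of the class. Counts at the 3' end were not scaled to gene length, so levels are compared between groups for a single gene and not between genes.

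Clusters were named from the marker lists, so their sums describe the classes and do not check the names. The dermal markers *Col1a1*, *Col3a1*, *Lum*, *Pdgfra* and the other 4 genes of that list summed at E13.5, E16.5 and P0 to 8852.8, 28212.1 and 42269.6 CPM in dermal-like cells and, in the epithelial-like ones, to 772.7, 2241 and 1288.5 CPM. The 8 epithelial markers, among them *Krt14*, *Krt5* and *Epcam*, summed to 5616, 12696.4 and 14140.9 CPM in epithelial-like and 52.4, 393.1 and 425.1 CPM in dermal-like cells. Condensate-like cells (428) were found at E16.5 and papilla-like cells (188) at P0. No E13.5 cluster was named as either class. Condensate- and papilla-like cells shared a single marker list, and the stage alone set which name was used. The same held for the placode-like cells at E16.5 and the matrix-like cells at P0.

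The start regions of *Rspo1* and *Lgr6* are shown as a dermal and an epithelial example among the members with a start region in the table. *Rspo1* lies on the forward strand at chr4:124986430-125009099 and *Lgr6* on the reverse strand at chr1:134983301-135105276 (build GRCm38), both protein-coding. The 250 bases upstream of the annotated start, taken from RefSeq (GRCm38.p6) and lying outside the transcript, were chr4:124986180-124986429 for *Rspo1* and chr1:135105277-135105526 for *Lgr6*. They are written 5′ to 3′ on the strand of the gene, with each CG pair in capitals:
Rspo1: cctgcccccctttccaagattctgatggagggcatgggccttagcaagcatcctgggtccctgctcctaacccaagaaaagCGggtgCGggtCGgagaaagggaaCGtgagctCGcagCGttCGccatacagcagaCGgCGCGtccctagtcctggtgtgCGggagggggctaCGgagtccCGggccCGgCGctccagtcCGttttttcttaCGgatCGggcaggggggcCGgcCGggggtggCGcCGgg
Lgr6: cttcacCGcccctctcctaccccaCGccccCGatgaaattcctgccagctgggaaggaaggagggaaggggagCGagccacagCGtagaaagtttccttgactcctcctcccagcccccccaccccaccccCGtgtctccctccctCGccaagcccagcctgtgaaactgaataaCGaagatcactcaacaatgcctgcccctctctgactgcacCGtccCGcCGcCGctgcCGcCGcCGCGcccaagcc
The *Rspo1* stretch held 22 CG pairs, more than 85.2% of the 32851 windows in the table, and the *Lgr6* stretch held 16, more than 74.6%, beside a median of 6. The letters ATCAAAG, the core bound by TCF and LEF factors, were searched on both strands of the 250 bases upstream of the start in each window. They were in none of the 6 upstream stretches of 5 members (*Rspo1*, *Rspo4*, *Lgr4*, *Lgr6* and *Rnf43*, which has 2), as was the shorter TCAAAG contained in it. Of all windows, 1053 (3.21%) and 4544 (13.8%) held the longer and the shorter letters in that stretch. No match says only that these letters are absent from these upstream stretches. *Rspo2*, *Rspo3*, *Lgr5* and *Znrf3* were not searched.

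Over whole libraries, *Rspo1* was at 85.6, 47.3 and 38.9 CPM and *Rspo3* at 31.1, 70.1 and 63.5 CPM at E13.5, E16.5 and P0. *Rspo2* had 111, 7 and 19 UMIs and *Rspo4* 42, 11 and 17 UMIs in all, so these ligands were near the limit of detection at this depth. The receptor *Lgr4* was at 26.0, 21.1 and 53.6 CPM, *Lgr5* at 4.56, 4.59 and 14.2 CPM and *Lgr6* at 0.81, 7.17 and 26.1 CPM. The ligase *Znrf3* was at 14.7, 25.8 and 42.1 CPM and *Rnf43* at 1.86, 5.57 and 5.54 CPM. Epithelial-like cells gave 4.26%, 19.3% and 40.9% of all UMIs at the 3 stages, so the whole-library levels of genes of the epithelium move with the makeup of the library.

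**Figure D1:**
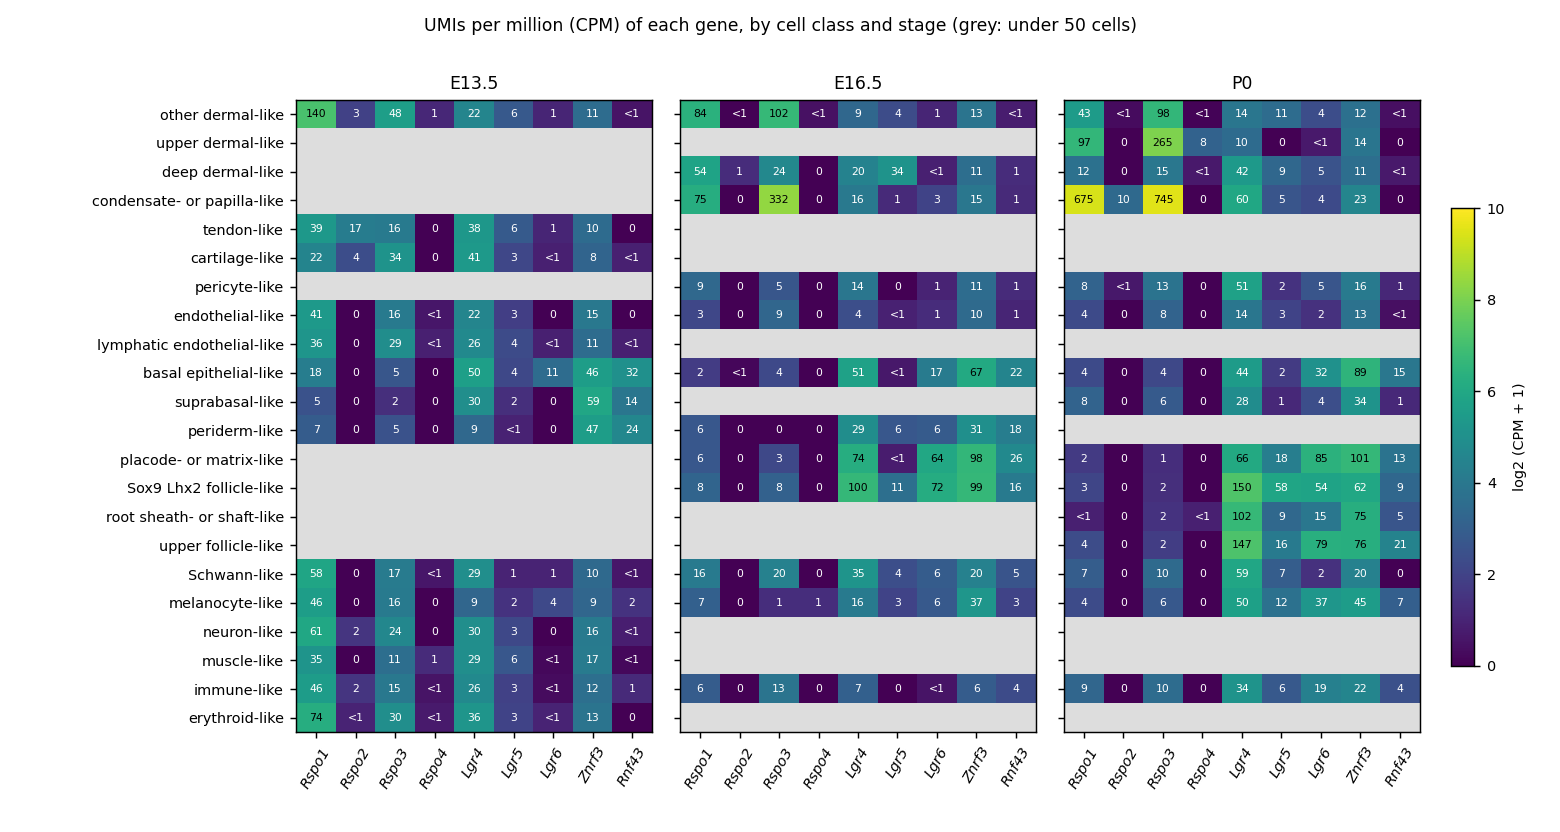
Level of each of the 9 genes (columns) in each cell class (rows) at E13.5, E16.5 and P0, as CPM written in each field and coloured on a log2 (CPM + 1) scale, with classes under 50 cells in grey. *Rspo1* and *Rspo3* were highest in papilla-like cells at P0 (675 and 745 CPM), while *Lgr4*, *Lgr6*, *Znrf3* and *Rnf43* were highest in epithelial-like rows.

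Among the ligands, *Rspo1* and *Rspo3* were dermal genes at every stage, and the levels of both were highest in the papilla-like cells of newborn skin. At E13.5, *Rspo1* stood at 140 CPM in dermal-like cells (counting interval 136 to 145) and *Rspo3* at 48.0 CPM (45.2 to 50.9). At E16.5 the condensate-like cells held *Rspo3* at 332 CPM (315 to 351) and *Rspo1* at 74.5 CPM (66.2 to 83.6). At P0 the papilla-like cells held *Rspo3* at 745 CPM (699 to 793) and *Rspo1* at 675 CPM (632 to 721). The intervals of these ligands in papilla-like cells lay above those of every other class at P0, the next being upper dermal-like cells with 265 CPM of *Rspo3* and 96.8 CPM of *Rspo1*.

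In condensate-like cells at E16.5, *Rspo3* was higher than in the other dermal-like cells and *Rspo1* was not. *Rspo3* was at 332 against 93.6 CPM, a log2 difference of 1.73 (1.64 to 1.82) after 10 CPM was added to each level. *Rspo1* was at 74.5 against 80.4 CPM, a log2 difference of -0.10 (-0.25 to 0.06), so its levels did not differ beyond counting error. Of the 5 members with at least 50 UMIs in this pair of groups, *Rspo3* alone reached a log2 difference of 1 in size, as 5.09% of all genes with that many UMIs did. The receptor *Lgr5* was at 1.29 against 7.26 CPM, a log2 difference of -0.61 that did not reach the size.

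The condensate-like cells at E16.5 were made of 2 clusters of nearly equal size that differed in both ligands. The cluster of 213 cells led by *Bmp3*, *Sox18* and *Sox2*, with 12 of 12 condensate markers up, had 575 CPM of *Rspo3* and 99.2 CPM of *Rspo1*. The cluster of 215 cells led by *Aqp1*, the haemoglobin gene *Hba-x* and *Foxd1*, with 9 of 12 markers up, had 79.2 CPM of *Rspo3* and 48.8 CPM of *Rspo1*, levels within the range of other dermal-like clusters. Without the second cluster, an alternative added after the data were seen, the log2 difference was 2.50 for *Rspo3* and 0.27 for *Rspo1*. A cluster of 324 dermal-like cells led by *Kcnk2* was next in *Rspo3* with 262 CPM.

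In papilla-like cells at P0, *Rspo1*, *Rspo3* and the receptor *Lgr4* were all higher than in the other dermal-like cells. *Rspo1* was at 675 against 45.9 CPM, a log2 difference of 3.62 (3.49 to 3.74). *Rspo3* was at 745 against 107 CPM, a log2 difference of 2.68 (2.58 to 2.79). *Lgr4* was at 60.5 against 16.48 CPM, a log2 difference of 1.41 (1.12 to 1.70). These 3 were the members that reached the size among 6 with enough UMIs, beside 8.85% of all genes. *Znrf3* was at 22.7 CPM in papilla-like cells with a log2 difference of 0.57, and *Lgr5* and *Lgr6* were at 5.29 and 3.78 CPM. The 8 epithelial markers summed to 482.3 CPM in the papilla-like group against 420.4 CPM in the other dermal-like one, the endothelial markers to 141.4 against 39.35 CPM, and the dermal markers to 9621.8 against 44976 CPM. The median depth of the groups was 5890.5 and 6024 UMIs per cell, and the part of these differences in the result was not tested.

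The 3 papilla-like clusters differed widely in both ligands. The 43 cells led by *Serpine2*, *Gdf10*, *Alpl* and *Corin* had 1358 CPM of *Rspo1* and 709.7 CPM of *Rspo3*. The 94 cells led by *Plac8* and *Bmp3* had 536.5 CPM of *Rspo1* and 1092 CPM of *Rspo3*. The 51 cells led by *Heyl* and *Galnt9*, with 10 of 12 condensate or papilla markers up, had 3.50 CPM of *Rspo1* and 31.5 CPM of *Rspo3*. So the cluster led by *Serpine2* was highest in *Rspo1* and that led by *Plac8* in *Rspo3*, while that led by *Heyl* had the lowest *Rspo1* of all dermal-like clusters of the library by value, with an interval that overlapped those next to it. *Lgr4* followed the first of these with 113 CPM, against 39.8 and 31.5 CPM in the other two. Without the cluster led by *Heyl*, also added after the data were seen, the log2 differences from other dermal-like cells were 3.96, 3.02 and 1.57 for *Rspo1*, *Rspo3* and *Lgr4*.

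**Figure D2:**
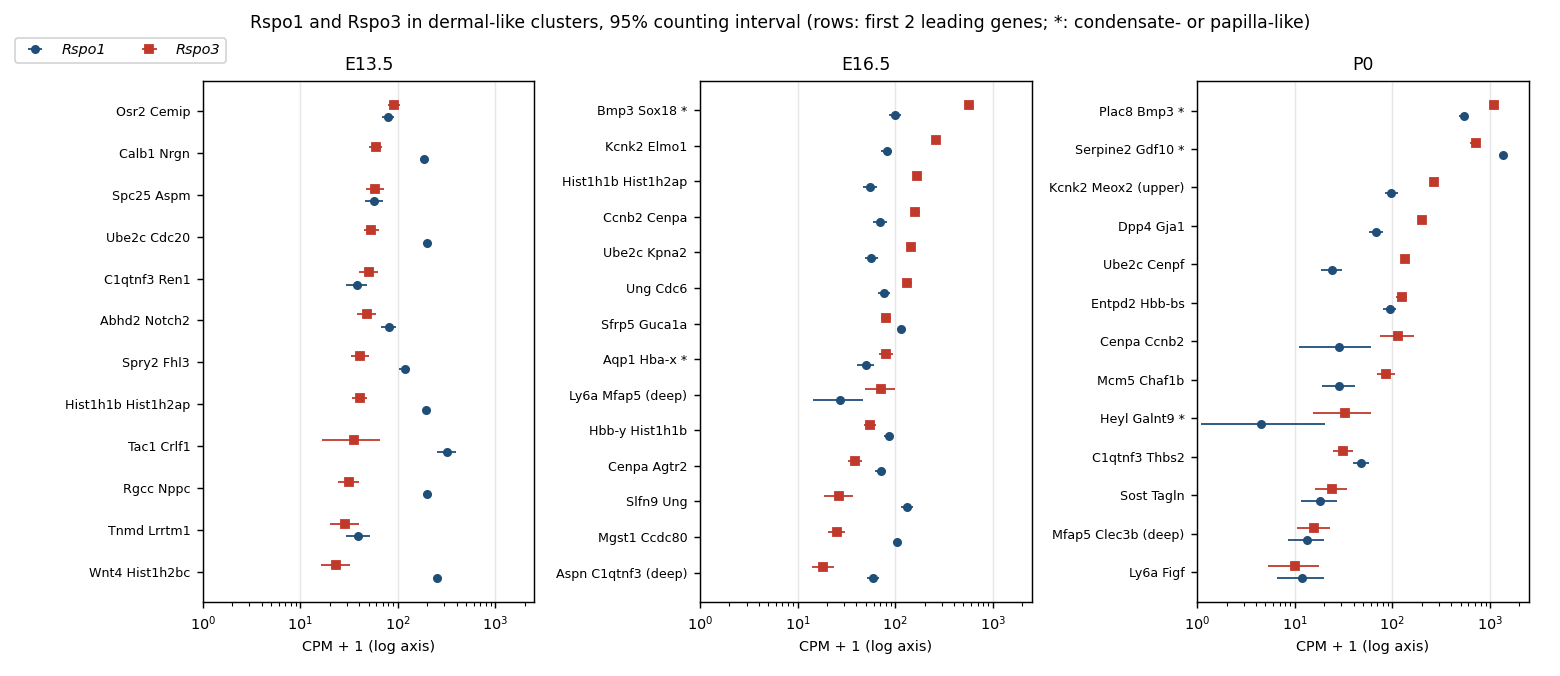
Level of *Rspo1* (circles) and *Rspo3* (squares) in each dermal-like cluster of at least 30 cells (rows, named by their first 2 leading genes) at E13.5, E16.5 and P0, as CPM + 1 on a log axis with 95% counting intervals. At E13.5 *Rspo1* spanned 36.9 to 315 CPM, while at P0 the starred papilla-like clusters led by *Plac8* and *Serpine2* stood above all others for both genes.

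Before a condensate cluster could be found, *Rspo1* already varied widely over the dermal-like clusters. Among clusters of at least 30 cells at E13.5 it ran from 36.9 CPM in the cluster led by *C1qtnf3* to 253 CPM in 141 cells led by *Wnt4* and *Dkk1* and 315 CPM in 33 cells led by *Tac1*. *Rspo3* ran from 22.2 CPM, in the same cluster led by *Wnt4*, to 90.2 CPM in 236 cells led by *Osr2* and *Gata6*. The cluster led by *Wnt4* thus was near the top in *Rspo1* and at the bottom in *Rspo3*, by value. The dermal-like clusters with the tendon markers *Tnmd* and *Scx* among their leading genes had *Rspo1* at 38.4 and 55.7 CPM. Part of the spread may thus lie between tissues, which was not tested.

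*Rspo1* and *Rspo3* were each detected in most papilla-like cells outside the cluster led by *Heyl*. Each cell was thinned to 3500 UMIs so that depth does not set these shares. Of the 188 papilla-like cells, 53.2% had *Rspo1* (59.0% unthinned), 62.8% had *Rspo3* (69.2% unthinned) and 85 had both, beside 62.8 cells from the product of the 2 shares. In the 137 papilla-like cells outside the cluster led by *Heyl*, a split added after the data were seen, 85 had both, beside 82.5 from the shares, so the excess over the whole class was mostly that between clusters. In condensate-like cells at E16.5 the ligands were in 18.2% (*Rspo1*, 31.3% unthinned) and 43.9% (*Rspo3*, 57.0% unthinned) of 428 cells and 50 had both, beside 34.3 from the shares, and in those outside the cluster led by *Aqp1* 41 of 213 had both, beside 32.4. In dermal-like cells at E13.5, 106 of 2424 cells had both, beside 102 from the shares, so the ligands were in the same cells about as often as their shares give. Immune-like cells, which should lack these genes, had *Rspo1* in 4.55% and *Rspo3* in 6.06% of 66 cells at P0 (median depth 8220.5 UMIs, against 5890.5 in papilla-like cells) and in 1.92% and 3.37% of 208 cells at E16.5 (10224 against 8481).

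At E13.5 dermal genes were also counted in cells outside the dermis, unevenly between clusters. Immune-like cells had 45.5 CPM of *Rspo1* and 15.2 CPM of *Rspo3*, which is 32.4% and 31.6% of the dermal level, and they had 40.1% of the dermal level of the dermal marker list. Erythroid-like cells had 74.0 CPM of *Rspo1*, 52.7% of the dermal level, beside 71.5% for the marker list, and neuron-like cells had 43.2% beside 43.5%. In these classes *Rspo1* thus lay at or below the proportion of the other dermal genes, and its level there is not read as expression. *Rspo3* in neuron-like cells was at 49.8% of the dermal level, above the marker list. The source of the dermal RNA in these cells was not tested. The pooled levels hide a wide range. *Rspo1* ran from 15.2 to 77.5 CPM over the immune-like clusters and from 6.79 to 90.3 CPM over the neuron-like ones. In 225 lymphatic endothelial-like cells *Rspo1* was at 25.6% and *Rspo3* at 60.6% of the dermal level, beside 30.3% for the marker list, so *Rspo3* stood above the list in those cells. With thinning, *Rspo1* was in 31.2% of dermal-like cells (52.0% unthinned) and 15.9% of immune-like cells (25.4% unthinned), with median depths of 8492 and 5990.5 UMIs.

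At P0 the papilla-like cells held much of the *Rspo1* of the library. Papilla-like cells were 3.71% of the cells of the library and 2.84% of its UMIs and gave 49.2% of all *Rspo1* UMIs and 33.3% of all *Rspo3* UMIs. At E16.5, condensate-like cells gave 5.87% of all UMIs and 27.9% of the *Rspo3* UMIs.

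*Rspo2* and *Rspo4* were rare. At E13.5, *Rspo2* was at 17.4 CPM in 123 tendon-like cells (17 UMIs, interval 10.2 to 27.9) and at 14.2 CPM in the dermal-like cluster led by *C1qtnf3*, against 2.86 CPM in dermal-like cells together. A dermal-like cluster led by *Spc25*, with the tendon marker *Scx* among its leading genes, had 11.5 CPM. At P0, papilla-like cells held 13 of the 19 *Rspo2* UMIs of the library (9.83 CPM, 5.23 to 16.8), and the cluster led by *Serpine2* had 31.8 CPM. Condensate-like cells at E16.5 had 0 UMIs of *Rspo2*, which allows up to 0.771 CPM. At E13.5, the *Rspo4* levels were highest by value in muscle-like (1.36 CPM) and dermal-like cells (1.14 CPM), with intervals that overlapped each other and those of other classes. *Rspo4* had 13 of its 17 UMIs at P0 in upper dermal-like cells (7.77 CPM, 4.13 to 13.3), the class that also came after papilla-like cells in *Rspo3*, and 0 in papilla-like cells, which allows up to 2.27 CPM.

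Set against the dermis as a whole, the epithelium was lower in *Rspo1* and *Rspo3* and higher in both ligases at each stage, and higher in *Lgr4* and *Lgr6* from E16.5 on. Epithelial-like cells had 8.81, 3.76 and 3.52 CPM of *Rspo1* at E13.5, E16.5 and P0, and dermal-like cells 140, 79.7 and 94.0 CPM, which gives log2 differences of -3.0, -2.71 and -2.94. For *Rspo3*, 3.96, 3.61 and 2.57 CPM stood against 48.0, 119 and 156 CPM, with log2 differences of -2.05, -3.25 and -3.73. The epithelial levels of *Rspo1* were 6.27%, 4.72% and 3.74% of the dermal ones and those of *Rspo3* 8.26%, 3.02% and 1.65%, while the dermal marker list stood at 8.73%, 7.94% and 3.05%. The epithelial *Rspo1* and *Rspo3* therefore lay at or near the level of other dermal genes in the same cells, and were not read as expression.

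The ligases were epithelial genes from the first stage. *Znrf3* was at 50.2, 69.6 and 77.3 CPM in epithelial-like and 10.6, 13.3 and 12.8 CPM in dermal-like cells, with log2 differences of 1.55, 1.77 and 1.94. *Rnf43* was at 22.9, 21.2 and 11.7 CPM against 0.44, 0.86 and 0.29 CPM, with log2 differences of 1.66, 1.52 and 1.08. Dermal *Rnf43* was 1.92%, 4.06% and 2.47% of the epithelial level, beside 0.933%, 3.10% and 3.01% for the epithelial marker list. The dermal level of *Znrf3* was 21.0%, 19.1% and 16.55% of the epithelial one. That is above the dermal share of the epithelial marker list at each stage. Immune-like cells had 23.3%, 9.33% and 29.0% of the epithelial *Znrf3* level, so the dermal level was above theirs at E16.5 only. These immune-like cells had 3.03%, 3.72% and 16.05% of the epithelial level of the epithelial marker list, so at P0 they also held more epithelial RNA.

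Of the receptors, *Lgr4* and *Lgr6* were higher in the epithelium at E16.5 and P0. *Lgr4* was at 25.1 against 22.3 CPM at E13.5, a log2 difference of 0.12, then at 56.3 against 11 and 90.4 against 19.9 CPM at E16.5 and P0, with log2 differences of 1.66 and 1.75. *Lgr6* had 6 UMIs in epithelial-like cells at E13.5 and stood at 26.5 against 1.25 and 50.9 against 3.88 CPM at the later stages, with log2 differences of 1.70 and 2.13. *Lgr5* was lower in epithelial-like cells at E13.5 (1.76 against 5.90 CPM) and E16.5 (2.27 against 6.62 CPM) and higher at P0 (22.5 against 9.03 CPM), but none of its log2 differences (-0.43, -0.44 and 0.77) reached 1. In all, 4 of 7 members with enough UMIs reached the size at E13.5 and 6 of 7 at E16.5 and at P0, where 12.5%, 12.5% and 13.2% of all genes did. Other stages and enzymes separate these libraries, so the stage values stand side by side.

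*Lgr4* was also counted outside both lineages. At P0 it was at 58.7 CPM in Schwann-like and 51.4 CPM in pericyte-like cells, which is 64.9% and 56.8% of the epithelial level, beside 5.87% and 6.21% for the epithelial marker list. Immune-like cells of that library had 34.4 CPM (21.8 to 51.6), 38.0% of the epithelial level beside 16.05% for the list. Their interval overlapped those of Schwann- and pericyte-like cells. At E13.5 it was at 40.9 and 38.0 CPM in cartilage- and tendon-like cells, the next after 49.5 CPM in 62 basal epithelial-like cells, and these intervals overlapped. Those 62 cells were a single cluster led by *Dkk4*, the gene that also led the placode-like cluster at E16.5, so the basal name is loose there. At E13.5 immune-like cells had 25.6 CPM of *Lgr4*, as much as epithelial-like cells, but their clusters ran from 9.58 to 39.2 CPM. Periderm- and melanocyte-like cells of that library had 9.41 and 8.91 CPM. How much of the *Lgr4* level of a class at E13.5 or P0 was background was not tested.

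Within the epithelium, *Lgr6* was higher than in basal cells in the placode-like cells at E16.5 and the matrix-like cells at P0. It was not particular to them. Its intervals overlapped those of the *Sox9* *Lhx2* follicle-like cells at E16.5 and the upper follicle-like cells at P0, both described below. At E16.5 it was at 63.7 CPM in 99 placode-like cells (51.3 to 78.1) and at 16.7 CPM in 562 basal epithelial-like cells, a log2 difference of 1.46 (1.18 to 1.75). It was the only member of 4 with enough UMIs to reach the size, as 2.12% of all genes did. *Lgr4*, *Znrf3* and *Rnf43* were at 74.1, 97.6 and 25.6 CPM against 51.2, 66.9 and 21.7 CPM, differences that stayed under the size. At P0, *Lgr6* was at 84.9 CPM in 315 matrix-like cells (76.2 to 94.4) and at 32.4 CPM in 439 basal cells, a log2 difference of 1.16. *Lgr5* was at 18.4 against 2.35 CPM, a log2 difference of 1.20, so 2 of 5 members reached the size, beside 5.74% of all genes. That of *Lgr5* turned to -0.22 when cells were assigned singly by their markers.

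The *Sox9* *Lhx2* follicle-like cells, named from a list with *Sox9* and *Lhx2*, transcription factors of the epithelial follicle downgrowth, were higher in *Lgr4* and *Lgr5* than basal cells at P0. Their 3 clusters at P0 were led by *Col14a1*, by *Cyp2g1* and *Cidea*, and by *Prss35*, with neither *Sox9* nor *Lhx2* among the 10 leading genes, whereas the E16.5 cluster had both there. At P0 the 431 such cells had *Lgr5* at 57.7 CPM (51.4 to 64.7) and the basal cells had 2.35 CPM (1.22 to 4.11), a log2 difference of 2.46. *Lgr4* was at 150 CPM (140 to 161) against 44.3 CPM, a log2 difference of 1.56, and its interval overlapped that of upper follicle-like cells (130 to 164). *Lgr6* was at 54.4 against 32.4 CPM and did not reach the size, with a log2 difference of 0.61. The ligases went the other way, with *Znrf3* at 61.8 against 89.2 CPM and *Rnf43* at 9.13 against 14.5 CPM, log2 differences of -0.47 and -0.36. Thus 2 of 5 members reached the size, beside 4.79% of all genes.

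At E16.5 there were 64 such cells. *Lgr6* was at 71.6 against 16.7 CPM in basal cells, a log2 difference of 1.61, and was 1 of 4 members to reach the size, beside 3.96% of all genes. *Lgr4* was at 101 against 51.2 CPM (log2 difference 0.86) and *Znrf3* at 98.9 against 66.9 CPM (0.50). *Lgr5* had 15 UMIs (11.4 CPM, 6.39 to 18.8) against 5 UMIs in basal cells (0.58 CPM), too few for the size to be read. The intervals of *Lgr6* in these cells and in placode-like cells overlapped, so E16.5 gave no order of the classes in *Lgr6*, whereas at P0 the matrix-like level lay above that of the *Sox9* *Lhx2* follicle-like cells.

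**Figure D3:**
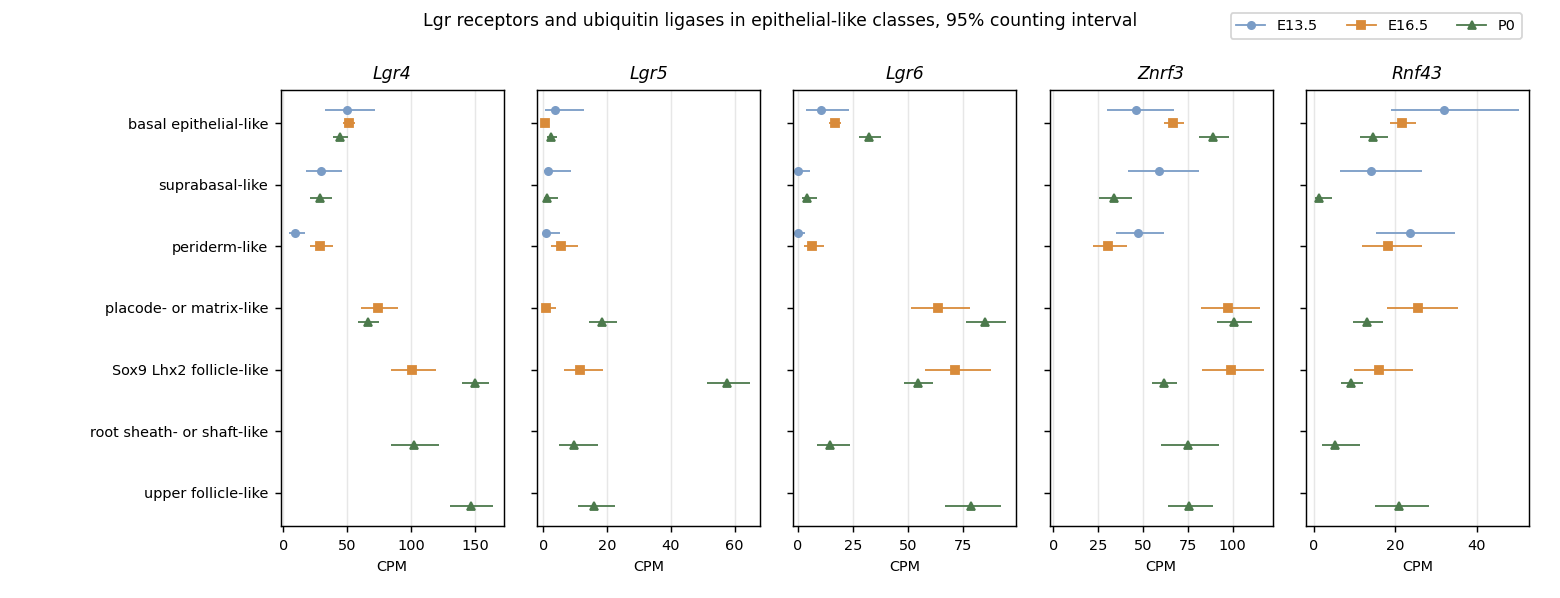
Level (CPM, with 95% counting intervals) of the receptors *Lgr4*, *Lgr5* and *Lgr6* and the ligases *Znrf3* and *Rnf43* in epithelial-like classes at E13.5 (circles), E16.5 (squares) and P0 (triangles). *Lgr5* stood apart in the *Sox9* *Lhx2* follicle-like cells at P0 (57.7 CPM), and *Lgr6* was highest in matrix- and upper follicle-like cells at P0 (84.9 and 78.8 CPM).

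The clusters inside these classes placed the 3 receptors differently. Of the 2 matrix-like clusters at P0, the 176 cells with *Cadm1*, *Bach2* and the mitotic cyclin *Ccnb1* among their leading genes had *Lgr5* at 24.8, *Lgr6* at 72.1 and *Lgr4* at 79.7 CPM. The 139 cells led by *Shh* and *Ascl4* had *Lgr5* at 7.83, *Lgr6* at 106 and *Lgr4* at 43.7 CPM. So *Lgr6* was higher where *Lgr4* and *Lgr5* were lower. The 3 clusters of *Sox9* *Lhx2* follicle-like cells had *Lgr4* at 142 to 165 CPM and *Lgr5* at 48.4 to 68.2 CPM, while *Lgr6* ranged from 32.2 CPM, in the cluster led by *Prss35*, to 64.7 CPM, in the cluster led by *Cyp2g1*. Upper follicle-like cells (59) had *Lgr4* at 147 and *Lgr6* at 78.8 CPM with *Lgr5* at 16.0 CPM. Their median depth was 24892 UMIs per cell, against 6797 over the P0 library, and the part of depth in these levels was not tested. Root sheath- or shaft-like cells (111) kept *Lgr4* at 102 CPM with *Lgr6* at 14.7 CPM. Suprabasal-like cells at P0 were lower than basal epithelial-like cells in *Lgr4* (28.4 against 44.3 CPM) and *Lgr6* (4.32 against 32.4 CPM). They were also lower in both ligases, with *Znrf3* at 33.9 against 89.2 CPM and *Rnf43* at 1.23 against 14.5 CPM.

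Basal epithelial-like clusters were not alike in *Lgr6*. At P0 it was at 21.5 and 22.8 CPM in 2 of them and at 82.4 CPM (with *Lgr5* at 8.12 CPM) in the third, 101 cells led by *Serpinb1b* and *Prss35*, so the basal group against which the follicle classes were compared held cells with follicle-like *Lgr6*. At E16.5 the 6 basal clusters ran from 3.79 to 26.3 CPM. A cluster of 65 cells at E16.5 that carried *Atoh1* and *Pou4f3*, genes of Merkel cells, had *Lgr6* at 49.6 and *Znrf3* at 95.4 CPM.

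Per cell, more than a single receptor was seen mostly in *Sox9* *Lhx2* follicle-like cells. After thinning, *Lgr4* was in 36.4% (64.7% unthinned), *Lgr5* in 19.3% (38.1% unthinned) and *Lgr6* in 15.3% (38.5% unthinned) of the 431 cells at P0. At least 1 of the 3 was in 56.2% of cells and at least 2 in 14.2%, against 36.8% and 5.08% in matrix-like and 22.6% and 1.59% in basal cells. *Lgr4* and *Lgr5* were in the same cell 34 times, beside 30.2 from the product of the 2 shares, and *Lgr4* and *Lgr6* 21 times beside 24.0, so these receptors were neither set apart nor joined by much at this depth. In 66 immune-like cells the shares were 7.58% (*Lgr4*), 1.52% (*Lgr5*) and 3.03% (*Lgr6*), with a median depth of 8220.5 UMIs against 9056 in *Sox9* *Lhx2* follicle-like cells.

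**Figure D4:**
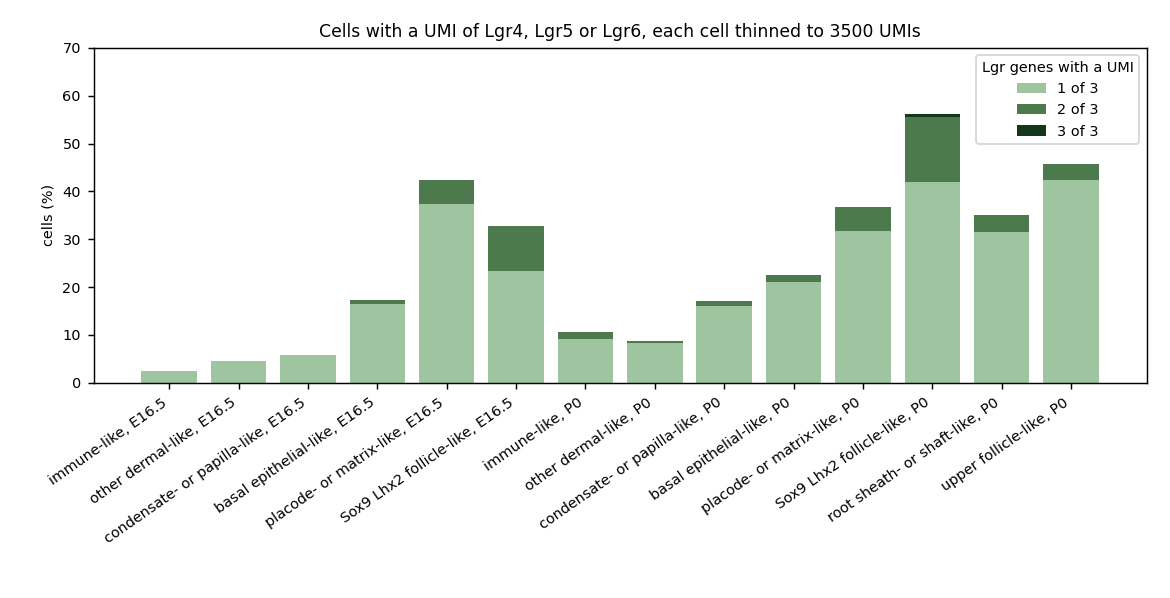
Share of cells (%, vertical axis) with a UMI of 1, 2 or all 3 of *Lgr4*, *Lgr5* and *Lgr6* after thinning each cell to 3500 UMIs, by class at E16.5 and P0. The *Sox9* *Lhx2* follicle-like cells at P0 were highest, with 56.2% having at least 1 and 14.2% at least 2 of the genes.

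*Lgr5* also had a dermal home. At E16.5 it was highest in deep dermal-like cells, at 33.9 CPM (28.1 to 40.5), of which 283 cells led by *Aspn* and *C1qtnf3* had 38.3 CPM. At P0 a cluster of 153 dermal-like cells led by *Ly6a* and *Figf* had 55.05 CPM, close to the 57.7 CPM of the *Sox9* *Lhx2* follicle-like cells of the same library. Dermal-like cells gave 78.6% of the *Lgr5* UMIs of the E16.5 library and 23.6% of those at P0, and epithelial-like cells 9.54% and 64.9%. Of all UMIs, dermal-like cells gave 54.5% and 37.1% and epithelial-like cells 19.3% and 40.9%, so these shares move with the makeup of the library. The dermal level itself was 6.62 and 9.03 CPM. Both clusters were low in *Rspo3*, at 17.4 CPM in the E16.5 and 9.02 CPM in the P0 cluster, while *Rspo1* was at 58.5 and 10.8 CPM.

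**Figure D5:**
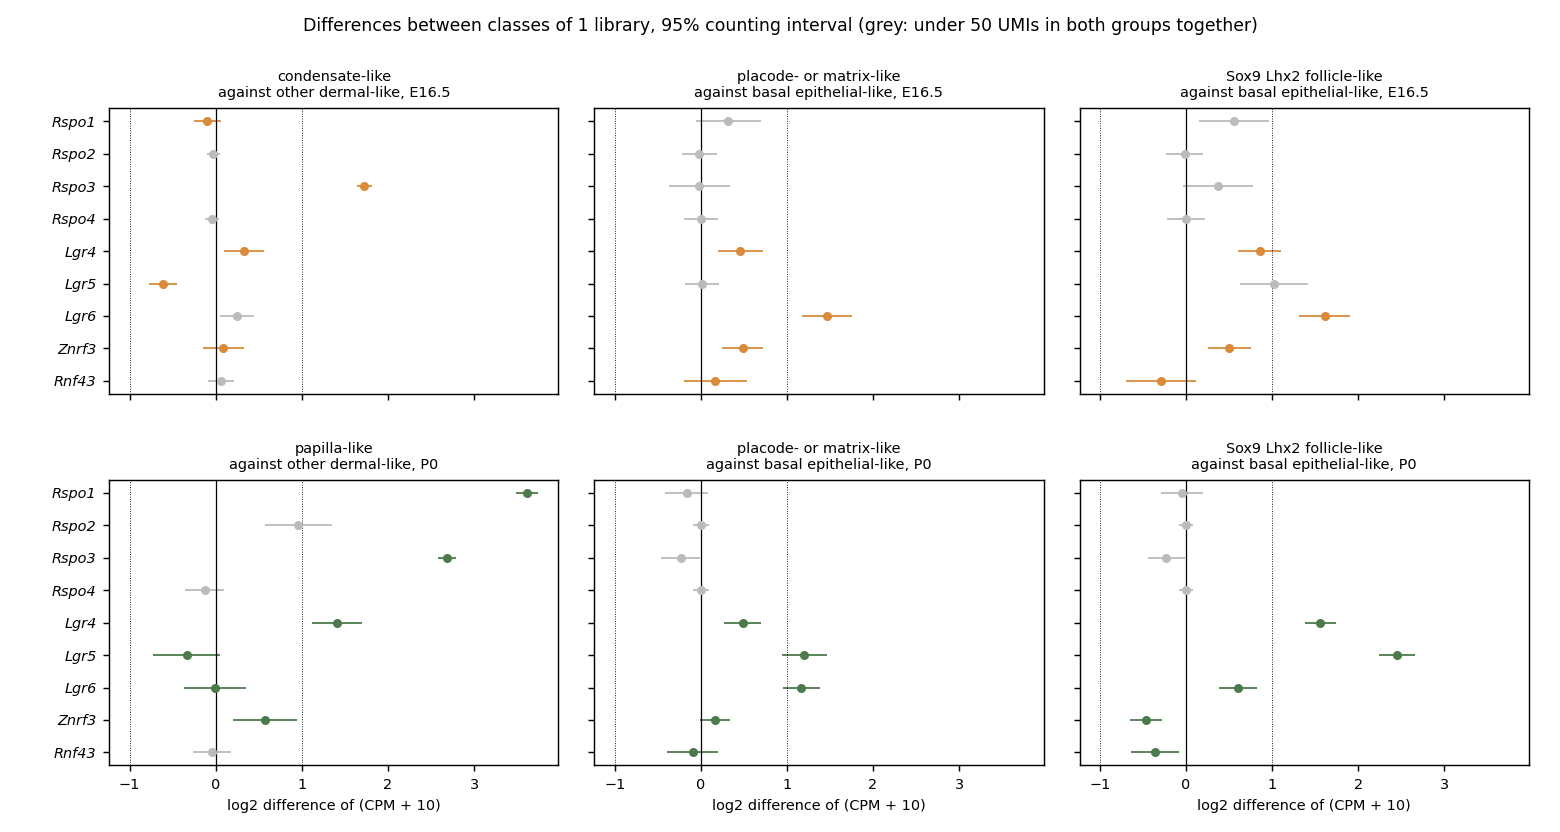
Log2 differences of CPM + 10 (horizontal axis) for the 9 genes between a follicle class and its neighbours in the same library, with 95% counting intervals, dotted lines at a size of 1 and genes with under 50 UMIs in grey. *Rspo3* lay past the size in condensate-like cells at E16.5 (1.73), *Rspo1*, *Rspo3* and *Lgr4* in papilla-like cells at P0, and *Lgr6* in both epithelial classes at E16.5.

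In blood vessel endothelium, no member was higher than in the rest of the skin by the size used, as 2.63%, 4.75% and 6.33% of all genes were at the 3 stages. At E13.5, 0 of 7 members reached it in either direction, beside 3.86% of all genes. At E16.5, 3 of 7 were lower (*Rspo1*, *Rspo3* and *Lgr4*, with log2 differences of -2.202, -2.18 and -1.20), beside 10.6% of all genes in either direction and 5.83% lower. At P0, 5 of 7 were lower (*Rspo1*, *Rspo3*, *Lgr4*, *Lgr6* and *Znrf3*, from -2.10 to -1.25), beside 12.8% and 6.49%. *Rspo3*, a ligand known from endothelium elsewhere, was at 16.2, 8.97 and 8.09 CPM in endothelial-like cells, which is 33.8%, 7.52% and 5.18% of the dermal level, beside 34.9%, 7.46% and 5.31% for the dermal marker list. In lymphatic endothelial-like cells *Rspo3* was at 29.1 CPM at E13.5 (22.6 to 36.9) and, in only 44 cells, at 33.8 CPM (23.2 to 47.4) at E16.5. That is 28.3% of the dermal level at E16.5, beside 8.23% for the marker list, and *Rspo1* there was at 3.07 CPM.

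The rest of the pathway was described with a list of 24 genes: 10 Frizzled receptors, the Lrp co-receptors, 3 Dishevelled adaptors, the R-spondin co-receptor *Sdc4* and 8 targets or effectors of beta-catenin. In condensate-like cells at E16.5, 5 of 22 with enough UMIs were higher and 1 lower, beside 2.35% and 2.74% of all genes. All 6 were targets or effectors: the transcription factors *Lef1* (log2 difference 1.76) and *Tcf7* (1.51), the Wnt deacylase *Notum* (1.47) and the feedback inhibitors *Nkd1* (1.15) and *Nkd2* (1.03) were higher, and the transcription factor *Sp5* (-1.11) was lower. The median over the list was 0.11 and over all genes 0.04.

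In papilla-like cells at P0, 9 of 19 pathway genes were higher and 0 lower, beside 5.44% and 3.42% of all genes. They were *Notum* (3.33), *Nkd2* (2.61), *Lef1* (2.46), *Tnfrsf19* (1.87) and *Tcf7* (1.66) among the targets or effectors, the receptors *Fzd10* (2.41), *Fzd3* (1.19) and *Fzd2* (1.03), and the adaptor *Dvl3* (1.30). The list's median was 0.87, beside 0.16 over all genes. Thus *Notum*, which acts against Wnt ligands, stood beside *Rspo1* and *Rspo3* among the genes that were higher in these cells.

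The epithelial classes differed in the same list. Placode-like cells at E16.5 had 2 of 18 genes higher, *Sp5* (2.43) and *Tcf7* (1.07), and 0 lower, beside 1.4% and 0.726% of all genes. Matrix-like cells at P0 had 6 of 18 higher and 0 lower, beside 2.32% and 3.42%: *Sp5* (3.37), *Notum* (2.195), *Nkd1* (2.04), *Fzd1* (1.45), *Tcf7* (1.39) and *Dvl2* (1.02). The *Sox9* *Lhx2* follicle-like cells at P0 had 2 of 15 higher, *Fzd1* (2.201) and *Fzd7* (1.42), and 3 lower, *Lef1* (-1.89), *Fzd10* (-1.65) and *Tnfrsf19* (-1.21), beside 2.29% and 2.5%. At E16.5 the same class had *Sdc4* (1.19), *Fzd7* (1.18) and *Nkd1* (1.10) higher and *Lef1* (-1.19), *Fzd10* (-1.14) and *Fzd6* (-1.12) lower of 17, beside 2.8% and 1.16%.

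Between epithelial- and dermal-like cells, 3 of 22, 5 of 22 and 4 of 23 pathway genes were higher in the epithelium at the 3 stages, beside 4.97%, 4.64% and 5.41% of all genes, and 6, 5 and 5 were lower, beside 7.57%, 7.88% and 7.82%. *Sdc4*, the co-receptor, was higher each time (1.37, 1.48 and 2.38), with *Fzd6* (2.14, 2.11 and 1.17) and *Fzd10* (1.40, 2.96 and 1.52), and *Nkd1* (-2.93, -3.34 and -2.80) and *Nkd2* (-2.01, -2.36 and -2.62) were lower. In endothelial-like cells *Fzd4* was the only pathway gene that was higher at each stage (1.38, 2.22 and 1.89), while 0, 10 and 9 of 23 were lower, beside 1.23%, 5.83% and 6.49% of all genes.

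Over 41 groups of at least 50 cells (a class in a library), the members fell into ligands and the rest. Correlations are of log2 (CPM + 10) and describe groups that share libraries, depth and background RNA. *Rspo1* and *Rspo3* went together (r = 0.85), as did *Znrf3* and *Rnf43* (0.82), *Lgr6* and *Znrf3* (0.82) and *Lgr4* and *Lgr6* (0.73). *Lgr5* was less like its relatives (0.55 with *Lgr4* and 0.49 with *Lgr6*), and *Rspo1* and *Rnf43* were opposed (-0.54). The genes most like *Rspo1* were *Tmem132c*, *Apela* and *Col26a1* (0.89 each), and those most like *Rspo3* were the collagen gene *Col23a1* (0.93), itself a marker used to name upper dermal-like cells, *Adrbk2* (0.90) and the agouti gene *a* (0.89). Genes like *Lgr6* were *Cpsf4l* (0.94) and *Tnfrsf18* (0.91), and *Lgr4* was most like *Slc27a1* (0.77), *Tenm2* (0.76) and *Tnfrsf18* (0.75). *Znrf3* was most like *Igsf9*, *Fermt1* (0.94 each) and *Ovol2* (0.92), and *Rnf43* most like *Cdcp1* (0.92), *4631405K08Rik* (0.91) and *Plekha7* (0.91). *Lgr5* came nearest to *Krtap17-1* (0.72), *Serpina9* (0.71) and *Aldh3a1* (0.71), of which *Krtap17-1* remained when only genes with at least 500 UMIs were searched.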

How the data were processed

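Back skin of C57BL/6 males was dissociated and sequenced with the 10x Genomics 3' kit, 1 library per stage. Per the labels and the methods, the authors aligned reads to mm10 with Cell Ranger 2.2.0 and kept cells with at least 1750 genes and genes seen in at least 3 cells. The deposited values are the natural log of 1 plus UMIs scaled to 10000 per cell. Undoing the log and the scaling gave whole UMIs for all 48197283 values above 0 in 16235 cells (tolerance 0.001). At each stage the paper reports fewer cells after filtering than these values cover. Its methods fixed the number of cells called per library, after a first run had called more, most of all at E13.5.

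Cells of each library were clustered with scanpy 1.11.5 (2000 variable genes without the 9 members and the 24 pathway genes, 30 components, 15 neighbours, Leiden resolution 1), and dermal and epithelial clusters were clustered again. A cluster was named from markers with a log2 difference of at least 1, and at the finer step needed over 50% of a list. Clusters whose genes mixed lineages got no class (295, 75 and 137 cells at E13.5, E16.5 and P0). Clusters left unnamed, such as that with Merkel cell genes at E16.5, held 7, 65 and 0 cells. At E13.5 the mixed or unnamed cells held 22.2% of the *Rnf43* and 9.96% of the *Znrf3* UMIs, beside 4.04% of all UMIs. The epithelial-like cells of that library numbered 207. The members, lists and tests were chosen with earlier results of these data known, and the naming rules and the Merkel exception after clusters had been seen.

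UMIs were summed per class and given as CPM with exact Poisson 95% intervals. Shares came with exact binomial intervals, from cells thinned to 3500 UMIs (1 shallower cell left out). Differences were log2 of CPM + 10, read for genes with at least 50 UMIs in the pair of groups. A difference of at least 1 counted as past the size. With 1 library per stage no test across samples was run. A count of 0 was given the limit of 3 counts. Scrublet marked 0, 84 (1.61%) and 106 (2.09%) cells as doublets at E13.5, E16.5 and P0. Marked cells stayed in and were left out as an alternative at the later stages. All 9 members, the pathway genes past the size and the 3 genes most like each member with at least 200 UMIs are named, except 1 gene that is not reported here. Other choices of clustering, filter, doublets and added CPM were tried as alternatives. Protein sequences were not used here.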

Additional observations from a re-analysis of the deposited data

Results flagged for a closer look

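The difference of *Lgr5* between epithelial- and dermal-like cells had opposite signs at different stages, with counting intervals that left out 0 each time: on the log2 scale it stood at -0.43 (E13.5), -0.44 (E16.5) and 0.77 (P0). The level of *Lgr5* in epithelial-like cells was 1.76, 2.27 and 22.5 CPM, and in dermal-like cells 5.90, 6.62 and 9.03 CPM. The difference of *Znrf3* between *Sox9* *Lhx2* follicle-like and basal epithelial-like cells was 0.50 (E16.5) and -0.47 (P0) on the log2 scale, from 98.9 against 66.9 CPM in 64 and 562 cells and from 61.8 against 89.2 CPM in 431 and 439 cells. Neither difference between stages was tested, as each stage is 1 library and the enzyme changed between E16.5 and P0.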

How the results depend on the processing

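Over 34 differences of members that reached the size, 273 of 297 alternatives gave the same call and 296 the same direction, and 13 differences kept the call in all of them. The exception in direction was *Lgr5* in matrix-like against basal cells at P0, which went from 1.20 to -0.22 when cells were assigned singly by markers. The number of members past the size moved by over 1.5 times as follows. With 1 CPM added in place of 10 it was 2 (from 1) in condensate-like cells, and in endothelium 3 (from 0) at E13.5 and 7 (from 3) at E16.5. With 50 CPM added it was 0 (from 1) in placode-like and *Sox9* *Lhx2* follicle-like cells at E16.5, 0 (from 2) in matrix-like cells at P0, in the epithelium 1 (from 4) at E13.5 and 2 (from 6) at E16.5, and in endothelium 1 (from 3) at E16.5 and 1 (from 5) at P0. With cells assigned singly it was 2 (from 1) in placode-like and in *Sox9* *Lhx2* follicle-like cells at E16.5, 0 in matrix-like and 1 in *Sox9* *Lhx2* follicle-like cells at P0 (from 2 each) and 3 (from 0) in endothelial-like cells at E13.5. In matrix-like cells at P0 it was 1 at resolutions 0.5 and 2. In endothelial-like cells at E13.5 it was 2 at resolution 2 and with 4000 variable genes and 1 with at least 2500 genes per cell. Of the pathway list, 1 gene (from 2) was past the size in placode-like cells at resolution 0.5, 8 (from 5) in *Sox9* *Lhx2* follicle-like cells at P0 with 1 CPM, and 2, 4 and 4 (from 1) in endothelial-like cells at E13.5 at resolutions 0.5 and 2 and with 1 CPM. A larger added CPM shrinks differences of low genes by construction, and the other causes were not tested. *Sox9* *Lhx2* follicle-like cells at E16.5 could not be compared at resolution 0.5 or with 4000 variable genes, since no cells had that name. Over all members and alternatives, 25 of 72 levels by stage, 51 of 204 levels by class and 183 of 621 log2 differences moved out of their counting interval. No paired analysis was possible because no stages share replicates, and classes of 1 library were not tested as pairs over stages. Depth limits *Rspo2* and *Rspo4*.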
